A study of Mus musculus with 4 samples.

Results

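Serum amyloid A (SAA) transcripts of the mouse kidney, Saa1, Saa2 and Saa3, were described across 4 spatial transcriptomics sections. The 3 genes were chosen by symbol from 32285 listed genes, with their levels by section and zone already known, so those levels are given as a description without a test. Each section came from the left kidney of a male wild-type C57BL/6J mouse of 7 to 8 weeks. The 2 normal sections came from control kidneys, and the 2 ischemic sections came from kidneys taken 24 h after 30 min of bilateral clamping of the renal pedicles. All 4 were 10 µm frozen sections on 1 Visium slide, on which barcoded spots capture polyadenylated RNA and each captured molecule is counted once by a unique molecular identifier (UMI). Which mouse gave which section is not stated in the labels, so sections were the unit of comparison, and p-values measure only the spread between sections, which may be technical.

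SAA proteins are small apolipoproteins of the acute-phase response. In inflammation the liver secretes SAA1 and SAA2 into the blood, where they ride on high-density lipoprotein (HDL), while SAA3 is the member made mainly outside the liver, by macrophages, fat and epithelia. Their transcription is driven by interleukin-6 family cytokines through STAT3 and by interleukin-1 and tumour necrosis factor through NF-kB and C/EBP factors. The secreted proteins act on formyl peptide and Toll-like receptors and on the HDL receptor, and persistently high levels are the source of AA amyloid deposits, for which the kidney is a main site.

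The SAA genes lie side by side on mouse chromosome 7. In the GENCODE annotation of GRCm38, Saa3 (ENSMUSG00000040026) spans chr7:46711998-46715700 on the minus strand, Saa1 (ENSMUSG00000074115) spans chr7:46740497-46742980 on the minus strand, and Saa2 (ENSMUSG00000057465) spans chr7:46751790-46754313 on the plus strand. Saa4 (ENSMUSG00000040017), the constitutive member of the family, lies between Saa3 and Saa1 at chr7:46727998-46732603, and the 4 genes fill 42316 bases. Saa1 and Saa2 face away from each other across 8809 bases. The promoter windows of the 3 genes are shown because Saa1 and Saa2 had nearly the same window and very different counts. Each runs from 250 bases before to 50 bases after the RefSeq start (GRCm38.p6), reads 5′ to 3′ along the gene, and has in capitals each match to the C/EBP pattern TTGCNNAA on either strand. The windows are at chr7:46742931-46743230 (minus), chr7:46751583-46751882 (plus) and chr7:46715627-46715926 (minus) for Saa1, Saa2 and Saa3.
Saa1: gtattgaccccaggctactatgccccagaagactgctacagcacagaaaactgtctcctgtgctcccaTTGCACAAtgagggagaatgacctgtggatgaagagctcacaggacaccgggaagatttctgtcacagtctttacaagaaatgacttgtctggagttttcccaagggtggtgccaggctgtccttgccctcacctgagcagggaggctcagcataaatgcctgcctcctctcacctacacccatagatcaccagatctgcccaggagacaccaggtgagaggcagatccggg
Saa2: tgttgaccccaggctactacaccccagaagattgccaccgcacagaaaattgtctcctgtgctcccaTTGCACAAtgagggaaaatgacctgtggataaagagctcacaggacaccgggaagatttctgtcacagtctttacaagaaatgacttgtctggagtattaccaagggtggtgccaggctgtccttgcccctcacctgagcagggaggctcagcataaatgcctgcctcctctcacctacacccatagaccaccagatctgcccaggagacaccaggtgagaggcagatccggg
Saa3: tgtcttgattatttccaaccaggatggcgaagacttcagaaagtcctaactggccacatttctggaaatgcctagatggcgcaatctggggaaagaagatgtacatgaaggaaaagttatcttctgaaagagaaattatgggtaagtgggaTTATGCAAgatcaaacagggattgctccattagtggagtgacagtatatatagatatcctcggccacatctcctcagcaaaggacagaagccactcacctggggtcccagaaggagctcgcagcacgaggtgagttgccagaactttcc

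The Saa1 and Saa2 windows were identical at 287 of 299 aligned bases (96.0%), whereas Saa3 matched Saa1 at 170 of 261 (65.1%). The C/EBP pattern, on its own, occurred in 10.8% of 32851 RefSeq promoters of this length and in all 3 of these windows, at 182, 183 and 99 bases before the start in Saa1, Saa2 and Saa3. The STAT pattern TTCNNNGAA, found in 8.30% of all promoters, and the NF-kB consensus, found in 8.46%, were not matched in these windows, which says only that these letters are not there. The coding sequences of Saa1 and Saa2 were 95.1% identical, and those of Saa1 and Saa3 79.1%. Over their last 400 bases, near which 3′ reads fall, Saa1 and Saa2 were 94.5% identical, and 0 of 311 windows of 90 bases were shared exactly, with a median of 6 mismatches per window. The split of reads between Saa1 and Saa2 rests on the authors' alignment and is uncertain.

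Total depth was 25957128 to 44528078 UMIs per section over 2401 to 2682 tissue spots, with section medians of 8656 to 16162.5 UMIs per spot. Levels are counts per 1000000 UMIs (CPM) scaled by edgeR's TMM factors unless they are called plain. Havcr1 (Kim-1), a marker of injured proximal tubule, rose from 1.17 and 2.14 CPM in the normal sections to 1287 and 1279 CPM in the ischemic sections. Adipocyte markers summed to 194 to 450.0 CPM in normal and 6.24 to 6.62 CPM in ischemic sections, and haemoglobin transcripts to 9041 to 10710 and 697 to 1461 CPM. Without spots that held 3 or more adipocyte counts, the ischemic means were 15.9 CPM for Saa1 and 3.32 CPM for Saa3, against 15.9 and 3.31 CPM with them. These means could hardly move, since ischemic cortex spots went only from 953 to 950 and from 955 to 952. Normal cortex spots went from 1178 to 920 and from 1160 to 1011, and the part of fat in the contrast was not tested. The part of blood was not tested.

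Saa1 was not detected in either normal section and was present in both ischemic sections. It gave 0 of 44528078 and 0 of 27657481 UMIs in normal sections 1 and 2, against 678 and 340 UMIs in ischemic sections 1 and 2. The ischemic levels were 19.9 and 11.9 CPM, a mean of 15.9 ± 5.72 CPM (SD, n = 2). Taking 3 counts per library as the most that a count of 0 allows, the ischemic mean of Saa1 was at least 167.5 times the normal level. This leaves aside the counting error of the ischemic mean. Of all genes tested, 60.6% changed between the conditions and 31.0% were higher in ischemic sections at an edgeR adjusted p under 0.05, and nothing is read from that for genes chosen on this contrast. In these sums a change in the number of cells of a type and a change in RNA per cell cannot be told apart.

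Spots with Saa1 numbered 367 of 2401 in ischemic section 1 (15.3%, 95% Clopper-Pearson interval 13.9 to 16.8%) and 230 of 2613 in ischemic section 2 (8.80%, 7.74 to 9.95%). The normal sections held 0 of 2616 and 0 of 2682 such spots, which allows a share of up to 0.115% and 0.112%. Most positive spots held a single UMI, 241 in section 1 and 170 in section 2, while the fullest held 17 and 10 UMIs. With every spot thinned to 2000 UMIs, the ischemic shares were 3.44% and 2.45%. Intervals and limits cover counting error only.

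Saa2 was barely detected. It gave no UMI in the normal sections and 8 and 4 UMIs in ischemic sections 1 and 2, each in a different spot, or 0.235 and 0.140 CPM. Against the same limit for a count of 0, Saa2 was at least 1.97-fold higher in ischemic sections. Saa1 and Saa2 are induced together in liver, yet here Saa1 gave 1018 UMIs and Saa2 12 over both ischemic sections. Of the 12 spots with Saa2, 6 also held Saa1.

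Saa3 was present at a trace in normal sections and was higher in both ischemic sections. Normal sections 1 and 2 gave 11 and 1 UMIs, or 0.298 and 0.0362 CPM, and ischemic sections 1 and 2 gave 130 and 80 UMIs, or 3.83 and 2.79 CPM. The ischemic mean was 3.31 ± 0.732 CPM and the normal mean 0.167 ± 0.185 CPM (SD, n = 2 each). The ratio of the pooled plain CPM was 22.2, with a 95% counting interval of 12.4 to 43.6. Spots with Saa3 made up 3.21% (2.54 to 3.99%) and 2.37% (1.82 to 3.03%) of the ischemic sections, and 8 of 2616 and 1 of 2682 spots of the normal ones. In normal section 1, 5 of the 11 UMIs lay in the pelvis, 4 of them in 1 spot.

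Saa4, which is not induced in the acute phase, gave 9 and 7 UMIs in the normal and 16 and 14 in the ischemic sections. Its log2 fold change of 0.94 (SE 0.41) did not pass the test (edgeR adjusted p = 0.0727).

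**Figure D1:**
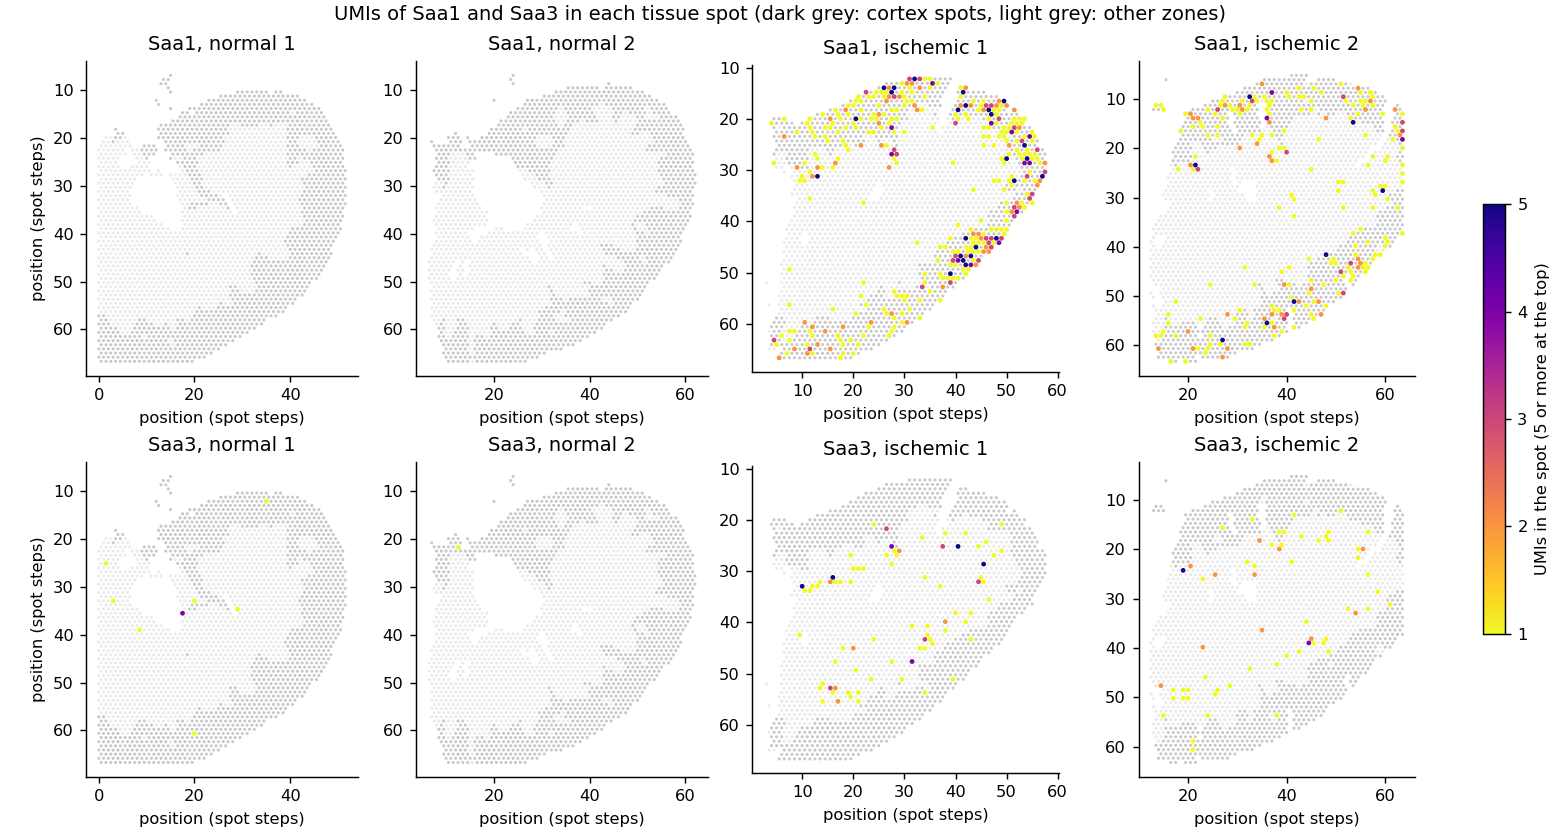
Position of every tissue spot in the 4 sections, coloured by its UMIs of Saa1 (top) and Saa3 (bottom), with axes in steps between spots. In the ischemic sections, spots with Saa1 (367 and 230) followed the cortex at the rim, spots with Saa3 (77 and 62) lay mostly inside it, and the normal sections held 0 spots with Saa1 and 9 with Saa3.

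The members occupied different zones of the ischemic kidney. Each spot was assigned to cortex, outer stripe of the outer medulla, inner stripe, inner medulla or pelvis by marker genes, and CPM was scaled over the sums of section and zone. Saa1 was highest in the cortex, at 47.6 CPM (95% counting interval 43.7 to 51.7) in ischemic section 1 and 27.8 CPM (24.4 to 31.5) in ischemic section 2. In the outer stripe it stood at 10.1 (8.16 to 12.4) and 9.54 CPM (7.51 to 12.0). The cortex exceeded the outer stripe by 4.71 and 2.91 times, and the cortical values differed more between the sections (37.7 ± 14.0 CPM) than the outer stripe values did (9.83 ± 0.403 CPM, SD, n = 2 each).

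Inward from the outer stripe little Saa1 was found. The inner stripe held 0.578 and 1.98 CPM and the inner medulla 0.960 and 0.726 CPM, from 2 to 10 UMIs per section, and their intervals overlapped. The pelvis held 15.8 and 6.46 CPM, whose intervals overlapped with those of the outer stripe, and 17 of the 23 pelvic UMIs of section 1 came from 1 spot. With zones called from each spot alone, without its neighbours, mean Saa1 was 4.16 CPM in inner stripe, 3.76 CPM in inner medulla and 3.72 CPM in pelvis. The cortex held 556 of 678 and 243 of 340 Saa1 UMIs, or 82.0% and 71.5%, in 39.7% and 36.5% of the spots. A Saa1 UMI was found in 30.8% and 17.2% of cortex spots and in 9.98% and 7.20% of outer stripe spots.

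Saa3 was lowest in the cortex. It stood there at 0.770 (0.352 to 1.46) and 1.14 CPM (0.549 to 2.10), from 9 and 10 UMIs. In the outer stripe it reached 8.48 (6.71 to 10.6) and 5.09 CPM (3.64 to 6.93), from 78 and 40 UMIs, which was 11.01 and 4.45 times the cortex. The inner medulla held 4.48 and 3.27 CPM, the inner stripe 2.50 and 2.57 CPM and the pelvis 10.99 and 5.16 CPM. Pelvis and outer stripe had overlapping intervals in both sections, as did inner medulla and inner stripe. Zones called from each spot alone gave means of 1.67 CPM in cortex and 1.95 CPM in pelvis. Outside the cortex lay 93.1% and 87.5% of Saa3 UMIs, against 18.0% and 28.5% of Saa1 UMIs.

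The balance of the members differed between the zones. UMIs are counted once per molecule at the 3′ end, so the ratio needed no scaling for length. There were 61.8 and 24.3 Saa1 UMIs for each Saa3 UMI in the cortex of sections 1 and 2, against 1.19 and 1.88 for the outer stripe, 0.231 and 0.769 for the inner stripe, and 0.214 and 0.222 for the inner medulla. The pelvis had 1.44 and 1.25. With zones called from each spot alone the inner stripe no longer held less Saa1 than Saa3, at means of 4.16 and 2.30 CPM. Saa4 also lay in the cortex after ischemia, where 16 of its 16 and 12 of its 14 UMIs were found, against 4 of 9 and 0 of 7 in the normal sections. Saa2 gave 6 of 8 UMIs in the cortex of section 1 and 1 of 4 in section 2, which is too few to place it.

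**Figure D2:**
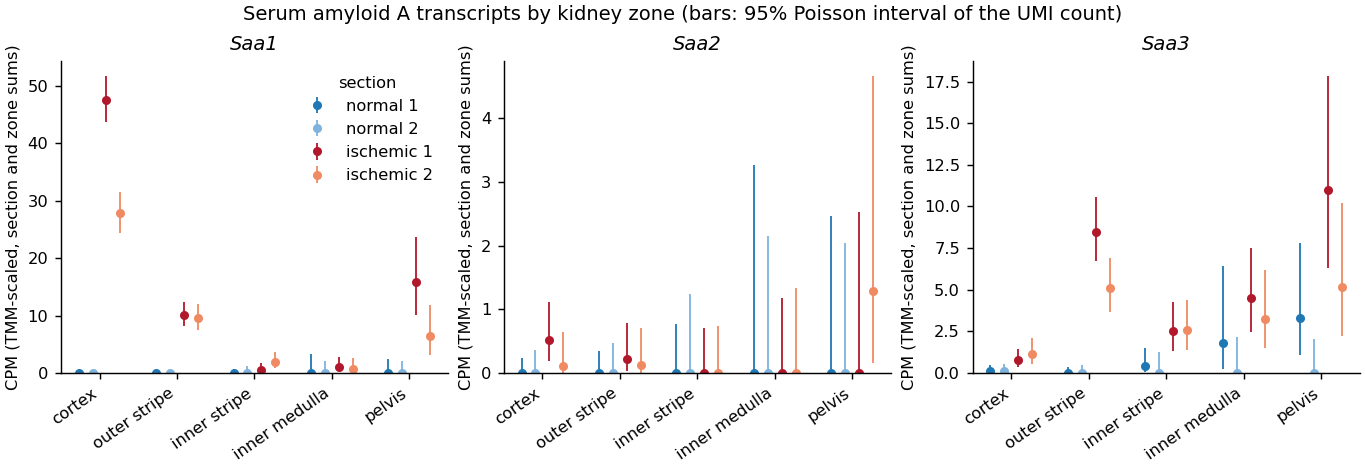
CPM of Saa1, Saa2 and Saa3 in each zone of each section, with 95% Poisson intervals of the UMI count as bars and a separate scale for each gene. Saa1 peaked in the cortex of the ischemic sections (47.6 and 27.8 CPM), Saa3 was lowest there (0.770 and 1.14 CPM), and the Saa2 points rest on at most 6 UMIs.

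Within the cortex Saa1 also had a gradient. Distance was counted in spot steps from the nearest edge of the tissue, which includes tears and the frame of the capture area. In all spots of ischemic section 1, plain CPM of Saa1 went from 43.0 at 1 to 2 steps to 30.8 at 3 to 5, 11.3 at 6 to 10 and 1.44 at 11 or more. Ischemic section 2 showed the same order, with 19.4, 15.4, 8.49 and 0.824. Among cortex spots alone the values were 57.0, 47.8 and 19.7 in section 1 and 30.1, 26.6 and 12.6 in section 2 over the outer 3 bands. Saa3 ran the other way over all spots, from 1.84 to 11.5 plain CPM in section 1 and from 1.65 to 6.18 in section 2 between the outermost and the innermost band.

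**Figure D3:**
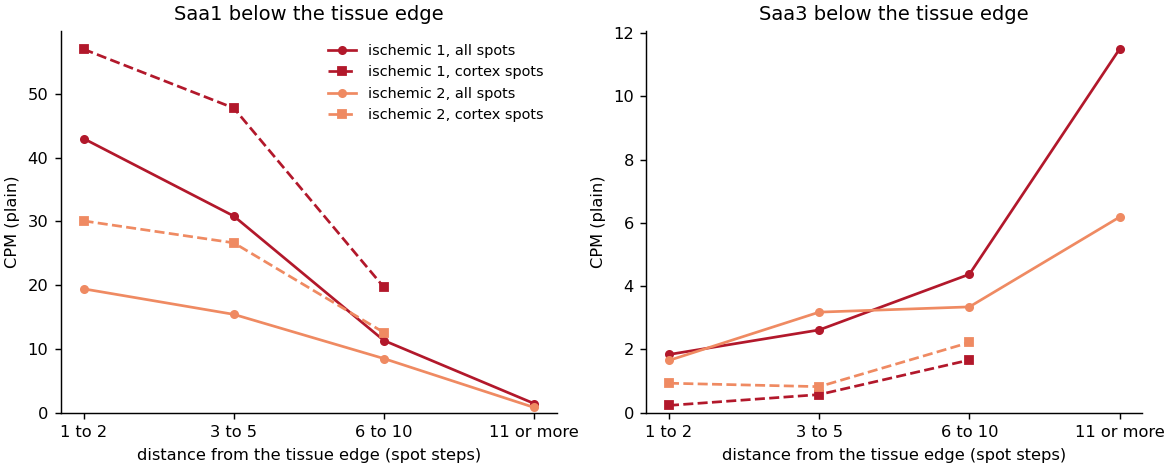
Plain CPM of Saa1 and Saa3 by distance from the tissue edge in the ischemic sections, for all spots (solid) and cortex spots (dashed). Saa1 was lower in each deeper band, down to 1.44 and 0.824, and Saa3 was highest in the innermost band, at 11.5 and 6.18.

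Over whole sections, spots with either gene often had neighbours with the same gene. A spot with Saa1 had a neighbour with Saa1 in 83.1% and 63.9% of cases, against 36.5% and 29.3% for spots without it. For Saa3 the shares were 42.9% and 32.3% against 14.4% and 11.8%. These shares cover all zones together and so include the difference between zones, and patches within a zone were not tested. The fullest 1% of spots held 26.6% and 30.6% of Saa1 UMIs and 60% and 56.3% of Saa3 UMIs. Few spots held both genes. Of the 77 spots with Saa3 in ischemic section 1, 4 held Saa1, and of the 62 in ischemic section 2, 6 did. Of all spots, 367 of 2401 and 230 of 2613 held Saa1, and the difference was not tested. In the outer stripe 0 of 40 and 4 of 35 spots with Saa3 held Saa1, against 62 of 621 and 49 of 681 of all spots there. Over spots pooled with their up to 6 neighbours, Spearman's correlation of Saa1 with Saa3 was -0.170 over 2401 and -0.0412 over 2613 spots.

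The genes whose pattern was most like each member's were ranked by the mean of this correlation over both ischemic sections, among 9425 genes with at least 200 UMIs in each. Spots share library, depth and neighbours, so the values describe these sections and have no p. Among the genes nearest to Saa1 were Selenop (0.734 and 0.588), the selenium transport protein, Fga (0.715 and 0.590) and Fgg (0.736 and 0.564), which encode fibrinogen chains, and Ndrg1 (0.712 and 0.560). Over sums of section and zone, normal sections included, Pearson's correlation of Saa1 with Selenop was -0.0783. These 4 were lower in the outer stripe than in the cortex of the ischemic sections, with log2 differences of -1.58, -1.69, -1.77 and -1.61 (edgeR adjusted p from 9.82e-08 to 1.30e-05). They were ranked on the same spots by likeness to a gene that was higher in the cortex. Their direction therefore follows from the choice, and the p-values add no support.

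Nearest to Saa3 were 5 genes, some of them genes of myeloid cells. They were Chil3 (0.372 and 0.375), the chitinase-like protein Ym1, Lyz2 (0.410 and 0.314), lysozyme, Cxcl14 (0.356 and 0.315), Lgals1 (0.371 and 0.296) and Ccl6 (0.373 and 0.286). All had higher levels in the outer stripe than in the cortex, by 3.04, 2.22, 2.86, 0.96 and 2.30 on the log2 scale (edgeR adjusted p from 2.03e-08 to 0.0182), and the call for Lgals1 was lost without ischemic section 1 (adjusted p = 0.430) or section 2 (0.312). These 5 were ranked on the same spots by likeness to a gene that was higher in the outer stripe. Their direction therefore follows from the choice, and the p-values add no support. Chil3 went from 5 and 3 UMIs to 661 and 486 with ischemia. The highest value for Saa2 was 0.131, with Saa1, which in counts this sparse is no finding.

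Whole lists separated the members in the same sections. The summed neutrophil markers correlated with Saa3 at 0.314 and 0.301 and with Saa1 at -0.258 and -0.0540. The macrophage and monocyte list gave 0.313 and 0.193 with Saa3 and -0.518 and -0.310 with Saa1. The hepatocyte list, which holds fibrinogen Fgb, gave 0.657 and 0.501 with Saa1 and -0.0449 and 0.0382 with Saa3. Injured tubule markers gave -0.524 and -0.421 with Saa1.

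**Figure D4:**
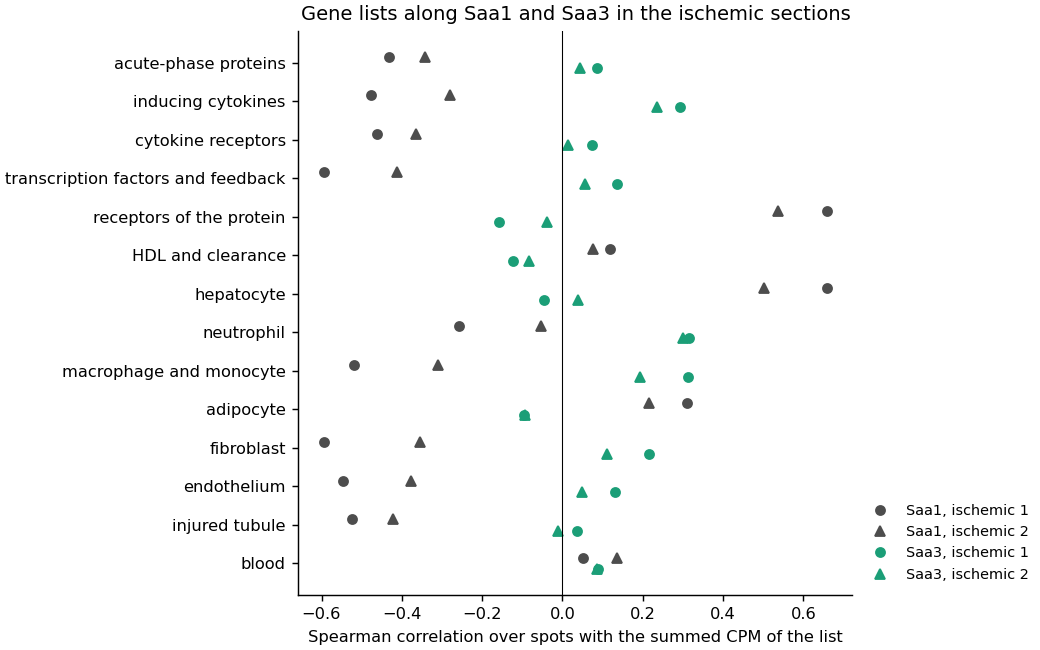
Spearman correlation over the spots of each ischemic section between Saa1 or Saa3 and the summed CPM of each gene list, both pooled over neighbouring spots. For the inducing cytokines the points lie at -0.476 and -0.279 with Saa1 and at 0.294 and 0.236 with Saa3.

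Within a single zone the picture was narrower. Over 953 and 955 cortex spots, Saa1 correlated with Fga at 0.518 and 0.364, with Fgg at 0.536 and 0.279, with Fgb at 0.488 and 0.298 and with complement C3 at 0.411 and 0.214. It ran against Havcr1 (-0.311 and -0.271), Cryab (-0.336 and -0.228) and Krt20 (-0.306 and -0.245), a keratin of injured tubules. The whole injured tubule list stood at 0.0148 and -0.0445 there. Over outer stripe spots the sign for Havcr1 was the opposite, at 0.146 and 0.137 with Saa1. Cryab (-0.378 and -0.341) and Krt20 (-0.270 and -0.226) kept theirs. Cortex spots with Saa1 summed to 2619 and 2308 CPM of acute-phase genes, against 1969 and 1840 in cortex spots without it. They were also deeper, with medians of 15380 and 11800 UMIs against 11190 and 7711, and the part of depth was not tested. The acute-phase list correlated with Saa1 at 0.441 and 0.251 over cortex spots but at -0.431 and -0.343 over all spots. Over outer stripe spots it stood at -0.290 and -0.0859.

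Over 621 and 681 outer stripe spots, Saa3 correlated with Chil3 at 0.440 and 0.352, with the haptoglobin gene Hp at 0.365 and 0.302, with S100a8 at 0.366 and 0.248, and with Lrp2, the proximal tubule receptor megalin, at -0.307 and -0.200. The 40 and 35 outer stripe spots with Saa3 held 1007 and 617 CPM of neutrophil markers, against 272 and 312 CPM in those without. Macrophage and monocyte markers stood at 433 and 330 CPM against 171 and 172 CPM. Haemoglobin transcripts stood at 1147 and 3772 CPM against 617 and 962 CPM, fibroblast markers at 343 and 330 CPM against 224 and 220 CPM, and endothelial markers at 492 and 511 CPM against 353 and 386 CPM. The part of these cell types in the Saa3 pattern was not tested. In the outer stripe median depth differed little, 15510 and 11170 UMIs with Saa3 against 15680 and 11940 without. In the inner medulla, the 12 and 7 spots with Saa3 held 375 and 1704 CPM of neutrophil markers, against 174 and 99.9 CPM without, and were deeper, with medians of 10480 and 10610 UMIs against 8699 and 6901. Outer stripe spots with Saa1 went the other way, at 122 and 65.4 CPM of neutrophil markers against 349 and 353 CPM in those without. Which cells of a spot held the transcripts was not measured.

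The pathway around SAA was then followed from lists of genes that were not chosen for SAA levels. The lists were, however, chosen with earlier results of these data known. The inducing cytokines rose, with 6 of 6 tested genes higher in ischemic sections, against 31.0% of all genes tested. Il6, absent from both normal sections, gave 71 and 78 UMIs after ischemia (edgeR adjusted p = 1.75e-05). Its ischemic mean was 25.3 times the limit for a count of 0. The IL-6 family members Il11 and Lif went from 0.271 and 0.181 to 18.0 and 18.1 CPM and from 0.298 and 0.290 to 13.7 and 17.3 CPM (adjusted p = 1.00e-07 and 2.18e-07 by edgeR). Il1b rose less, by 0.78 on the log2 scale (SE 0.22, edgeR adjusted p = 0.0140), and lost its call without ischemic section 1 (adjusted p = 0.0993). Tnf went from 11 and 17 to 33 and 29 UMIs (adjusted p = 0.0281), a call lost without normal section 1 (0.166), ischemic section 1 (0.105) or ischemic section 2 (0.119), and with DESeq2 (0.129). Osm gave 0, 2, 8 and 7 UMIs and was too low to test.

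Those tested between zones had the spatial order of Saa3, not that of Saa1. In the ischemic sections 5 of 5 tested were higher in the outer stripe than in the cortex, against 12.2% of all genes tested. Il11 stood at 5.39 and 4.23 CPM in the cortex and 33.1 and 40.1 CPM in the outer stripe (log2 2.83, SE 0.24, edgeR adjusted p = 1.25e-07). Il6 stood at 0.257 and 0.801 against 4.89 and 5.60 CPM (log2 3.27, SE 0.46, edgeR adjusted p = 0.000124), a call lost without ischemic section 1 (0.114). Il1b, at log2 2.11, lost its call without ischemic section 1 (adjusted p = 0.144) or 2 (0.0611), and Lif, at log2 0.91, likewise (0.255 and 0.329). Tnf was too low to test between zones, at 0.770 and 1.14 CPM in the cortex and 0.761 and 0.891 CPM in the outer stripe. The zones of a section share a library, so this test's spread may be too small.

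Of the cytokine receptors, 5 of 8 tested were higher and 2 lower in ischemic sections, against 31.0% and 29.7% of all genes. Osmr, the oncostatin M receptor chain, rose from 4.85 and 6.95 to 29.8 and 32.8 CPM (edgeR adjusted p = 2.29e-06) and Tnfrsf1a, a TNF receptor, from 58.5 and 62.7 to 132 and 143 CPM (2.15e-05). Il11ra1 fell from 108 and 104 to 47.1 and 47.8 CPM (1.30e-05). Between outer stripe and cortex 1 of 8 differed, against 26.5% of all genes tested. It was Il1r1, the interleukin-1 receptor, and its call was lost without ischemic section 1 (log2 difference 0.59) or 2 (0.85).

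Of the transcription factors and feedback genes, 12 of 14 were higher and 0 lower, against 31.0% and 29.7% of all genes tested. Their median log2 change was 1.47, against 0.04 over all genes. Socs3, the feedback inhibitor induced by STAT3, rose from 1.27 and 2.93 to 54.7 and 52.7 CPM (edgeR adjusted p = 6.65e-07). Stat3 rose from 40.3 and 43.5 to 119 and 118 CPM, Cebpb from 7.53 and 9.09 to 26.4 and 38.2 CPM and Cebpd from 32.2 and 48.9 to 110 and 109 CPM (edgeR adjusted p = 3.54e-06, 1.93e-05 and 0.000109). Between outer stripe and cortex 5 of 14 were higher and 0 lower, against 12.2% and 14.3% of all genes tested. Socs3 (log2 0.64, edgeR adjusted p = 0.0276) and Nfkbia (0.41, 0.0211) were among them, and both lost the call without ischemic section 1 or 2. Stat3, Cebpb and Cebpd did not pass this test, with log2 differences of -0.26, 0.21 and 0.32 (edgeR adjusted p = 0.285, 0.487 and 0.343). Nfkbia, the NF-kB inhibitor and target, rose by 0.42 (SE 0.10, edgeR adjusted p = 0.00577), a call lost without ischemic section 2 (0.0675).

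Other acute-phase proteins split. Of 23 on the list, 16 could be tested, of which 9 were higher, 4 lower and 3 not called, against 31.0% and 29.7% of all genes tested. The fibrinogen chains rose with Saa1 and shared its zone. Fgb went from 1.68 and 2.17 to 102 and 79.6 CPM, Fgg from 12.4 and 12.6 to 210 and 166 CPM, and Fga from 23.6 and 19.3 to 226 and 210 CPM (edgeR adjusted p = 9.66e-08, 1.72e-07 and 2.31e-07). In the ischemic sections each was lower in the outer stripe than in the cortex, with log2 differences of -2.12, -1.77 and -1.69 (SE 0.14, 0.15 and 0.18, edgeR adjusted p = 8.84e-09, 9.82e-08 and 1.23e-06). C3 had the same direction, at -1.01 (edgeR adjusted p = 0.000909), a call lost without ischemic section 1 (0.281) or 2 (0.104). Lcn2, lipocalin-2, rose from 5.93 and 7.97 to 2793 and 3283 CPM and was higher in the outer stripe by 1.37 (edgeR adjusted p = 8.06e-05), a call lost without ischemic section 1 (0.0742) or 2 (0.0978).

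The 4 that fell were Orm1, Apcs, Itih3 and Hp. Orm1, Apcs, the serum amyloid P gene, and Itih3 fell, with log2 fold changes of -2.48, -2.92 and -1.45 (edgeR adjusted p = 0.00346, 0.000186 and 0.000991). Hp fell by 0.85 (adjusted p = 0.0462), a call lost without normal section 1 (0.697) or ischemic section 2 (0.0751) and with DESeq2 (0.234). Crp gave 5, 1, 0 and 0 UMIs. Between outer stripe and cortex 3 of 15 acute-phase genes were higher and 5 lower, against 12.2% and 14.3% of all genes tested.

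Defining transcripts of liver cells were lower in ischemic sections. The hepatocyte list had 1 of 6 tested genes higher, Fgb, and 5 lower, against 31.0% and 29.7% of all genes tested. Its summed level was 426 to 547 CPM in normal and 175 to 194 CPM in ischemic sections. Alb, albumin, gave 132 and 67 UMIs in the normal and 47 and 34 in the ischemic sections, and Ahsg 0, 2, 0 and 0. Ttr, transthyretin, fell by 4.00 on the log2 scale (edgeR adjusted p = 2.48e-07).

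Of the receptors of the SAA proteins, 7 of 12 tested were higher, 2 lower and 3 not called, against 31.0% and 29.7% of all genes. The formyl peptide receptors Fpr1 and Fpr2 gave 0 and 0, and 1 and 4 UMIs in the normal sections, against 25 and 27, and 20 and 19 in the ischemic ones (edgeR adjusted p = 0.000158 and 0.00233). Cd14, a co-receptor of the Toll-like receptors, rose from 3.31 and 5.76 to 29.1 and 31.8 CPM (edgeR adjusted p = 4.38e-06). Tlr2 rose by 0.95 and Tlr4 by 0.79 on the log2 scale (edgeR adjusted p = 0.00186 and 0.0157), the Tlr4 call being lost without ischemic section 1 (0.0691) or 2 (0.0846) and with DESeq2 (0.0544). Scarb1, the HDL receptor SR-BI, rose from 9.38 and 9.52 to 18.8 and 19.3 CPM (edgeR adjusted p = 3.65e-05) and was higher in the outer stripe by 1.16 (adjusted p = 1.31e-05). The endocytic receptors Lrp2 and Cubn, which take up filtered proteins in the proximal tubule, fell, with log2 fold changes of -2.31 and -2.20 (edgeR adjusted p = 3.16e-06 and 3.78e-06).

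Of the genes of HDL and of SAA clearance, 3 of 10 were higher and 5 lower, against 31.0% and 29.7% of all genes. The apolipoproteins Apoa1 and Apoa2 and the phospholipid transfer protein Pltp fell, with log2 fold changes of -2.14, -1.91 and -2.21 (edgeR adjusted p = 2.12e-05, 8.32e-06 and 6.21e-06). Lcat rose by 1.24 and the lysosomal protease Ctsl by 0.91 (edgeR adjusted p = 0.00398 and 0.000535).

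**Figure D5:**
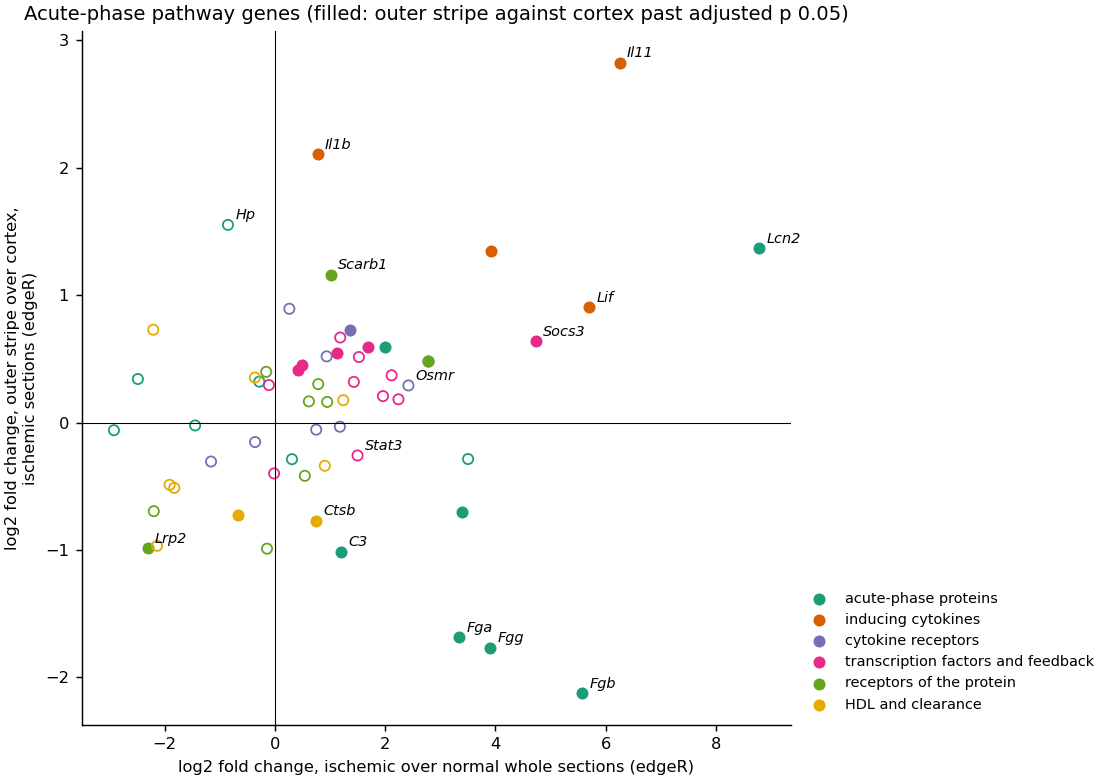
Each point is a pathway gene tested in both comparisons, placed by its log2 fold change between ischemic and normal sections and between outer stripe and cortex of the ischemic sections. Genes at 0 UMIs in both normal sections (Il6, Fpr1) are left out, colours mark the lists, and filled points passed the outer stripe test. Il11 lies at 6.25 and 2.83, above the zero line, and Fgb lies below it at 5.57 and -2.12.

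Neutrophil markers were higher in ischemic sections, as Saa3 was. All 7 tested neutrophil genes were higher in ischemic sections, against 31.0% of all genes tested. The summed level of the list was 2.30 and 2.93 CPM in the normal and 166 and 165 CPM in the ischemic sections. Between the zones 5 of 5 were higher in the outer stripe, against 12.2% of all genes tested. S100a8, a neutrophil alarmin subunit, stood at 28.8 and 33.9 CPM in the cortex and at 153 and 156 CPM in the outer stripe (log2 2.23, SE 0.21, edgeR adjusted p = 2.68e-07). Of the macrophage and monocyte genes, 3 of 10 were higher and 4 lower in ischemic sections, near the 31.0% and 29.7% of all genes. Their summed level was 188 and 218 CPM in normal and 166 and 163 CPM in ischemic sections. Between the zones 5 of 10 were higher in the outer stripe, against 12.2% of all genes tested.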

How the data were processed

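Spatial counts of 2 normal and 2 ischemic kidney sections were used. Per the file headers and labels, the authors ran Space Ranger 1.3.0 (mm10) and deposited UMI counts for every gene in every spot, without normalization. Saa1, Saa2, Saa3 and the gene lists were chosen with earlier results of these data known. Counts were summed over tissue spots of each section, and over section and zone (at least 20 spots), and tested with edgeR 4.0.16 in R 4.3.3 (quasi-likelihood test after TMM scaling and filterByExpr, with p-values adjusted by Benjamini-Hochberg over all genes tested and a threshold of 0.05). No test was made of the 3 SAA genes, and none over spots. A spot took the zone whose marker list, pooled over up to 6 neighbours, log-transformed and standardised within its section, scored highest. Pelvis needed 10 counts of its list and the top 5% of scores. For a library without a count, 3 counts were taken as the upper limit. Position barcodes recur between sections (1490 in all 4) because the slide areas share them.

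Gene positions came from GENCODE vM21, which matched 32235 of 32285 identifiers, and all promoters from RefSeq. Genes named were the SAA genes, the 5 nearest in pattern for each, up to 3 largest rises and falls past the threshold in each list, and a fixed set of cytokines, factors, receptors and markers, of which 1 gene is not reported here. Alternatives were DESeq2 1.42.0, RLE factors, no expression filter, spots with at least 500 UMIs, other zone rules, and each section left out. Levels of the SAA genes alone were also taken as plain CPM, thinned to 2000 UMIs, and without spots with 3 or more adipocyte counts. On simulated counts of 15157 genes in the whole-section comparison, edgeR recovered 43 of 67 genes changed 1.5-fold, 64 of 67 changed 2-fold and 66 of 66 changed 4-fold, with 6 false calls. For the zones (13001 genes) it recovered 22 of 67, 53 of 67 and 65 of 66, with 6 false calls. The simulations changed only these genes, gave all genes the same fixed spread and drew the zones of a section independently. In the data 60.6% of genes were called between conditions, so the false calls do not give the error rate there. Protein sequences were not used here.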

Additional observations from a re-analysis of the deposited data

Results flagged for a closer look

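The difference between outer stripe and cortex was compared between ischemic and normal sections with an interaction contrast of the zone model, chosen after seeing the data. Of 14174 genes tested, 1665 (11.7%) passed an edgeR adjusted p of 0.05, and 18 of the 90 named genes tested did. The SAA genes were not tested, and the genes with a similar pattern had been ranked on the same ischemic spots. The values below are the log2 difference in ischemic minus that in normal sections.

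Among acute-phase and lipoprotein genes these were Apoa1 -3.04, Itih3 -2.78, Fga -2.66 and Hp 4.23. Among the genes with a pattern like Saa1 or Saa4 they were Selenop -1.47 and Spink1 -1.17. Among those with a pattern like Saa3 they were Ccl6 2.70, Lyz2 1.56 and Cxcl14 1.09. Among cytokine pathway genes they were Nfkbiz 1.00 and Lifr -0.73. Among markers they were Krt20 5.49, S100a8 2.88, Cd68 1.40, Col1a2 1.03, Csf1r -1.26, Cldn10 -1.73 and Havcr1 -2.14.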

How the results depend on the processing

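Whole-section counts of called genes stayed within 1.5 times of 9279 under every alternative run. For outer stripe against cortex, leaving out 1 section moved the 3758 called genes to between 589 and 5979, the 1728 higher to between 223 and 2834 and the 2030 lower to between 366 and 3488. The lowest counts came without ischemic section 1, when the lone ischemic section was assumed to vary like the other groups. Of 92 named genes called between conditions, 78 kept the call in every alternative, and of 45 called between zones, 22 did. The tests were not rerun without spots that held adipocyte counts, so the part of fat in these calls was not tested. Without normal section 1, the uncalled log2 changes of Lyz2 and Dab2 turned sign. Over the sections left out they ranged from -0.033 to 0.30 and from -0.26 to 0.057.

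Zones from the spot alone moved mean ischemic Saa1 to 11.6 CPM in outer stripe, 4.16 in inner stripe, 3.76 in inner medulla and 3.72 in pelvis, and Saa3 to 1.67 in cortex, 2.30 in inner stripe, 4.74 in inner medulla and 1.95 in pelvis. Without Cryab and Akr1b3, Saa1 was 1.05 in inner medulla, and Saa3 was 3.03 in inner stripe and 2.05 in inner medulla. Without boundary spots, Saa3 was 1.35 and 2.84 there. Plain CPM gave 8.88 for Saa1 in outer stripe and 2.95 for Saa3 in inner stripe. Thinning moved the mean share of spots from 12.1% to 2.94% for Saa1, from 0.243% to 0.0524% for Saa2 and from 2.79% to 0.674% for Saa3. For spots alone, the correlations of Saa1 with Selenop, Saa2 with Saa1 and Saa3 with Chil3 were 0.348, 0.0668 and 0.242, and over section and zone sums (Pearson) -0.0783, 0.510 and 0.883. The cause of these moves was not tested.

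Sections with the same number share only that number. Deviations of sections numbered 1 correlated at 0.219 over 15305 genes, and with the number as a replicate block 10089 and 4498 genes were called. Depth limited Saa2 above all, at 12 UMIs.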
